A study of Mus musculus with 12 samples.

Results

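In CMs lacking RIP140, 99 protein-coding genes gained several H3K27ac regions and lost none. They were chosen by the presence of regions in the lists of both genotypes: each region was assigned to the protein-coding gene with the nearest TSS, and a gene was kept if at least 3 of its regions were found in RIP140-null CMs only (KO-only) and 0 were found in control CMs only (control-only). The 99 genes stand among 13942 genes nearest at least 1 region and 21755 protein-coding genes in all. Because region counts selected the genes, every count, width and covered length of their regions given here is a description with no test.

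H3K27ac was mapped by CUT&RUN, in which an antibody directs a nuclease to chromatin and the DNA that is released is sequenced. The hearts came from mice of genotype Nrip1 f/f Cre- (control) and from Nrip1 f/f mice with Cre driven by the Nkx2.5 promoter (csNrip1-/-, KO), both aged 10 to 12 weeks, so that both groups carried the floxed *Nrip1* allele and only the KO group carried Cre. Each experiment took 200000 CMs, for which Langendorff-perfused hearts were dissociated and CMs concentrated by slow centrifugation. Replicates numbered 3 for H3K27ac and 3 for IgG in either genotype. Cre acted wherever the Nkx2.5 promoter had been active, and the controls carried no Cre, so effects of Cre itself and of *Nrip1* deletion cannot be told apart. The authors called regions in each replicate and deposited 1 list per genotype of regions found in at least 2 of 3 replicates, with no signal per region. A region called in only 1 replicate is absent from its list, so KO-only does not mean that control CMs lacked H3K27ac there. The depth behind a region is therefore unknown, no replicate error can be given, and fewer cells that carry a region cannot be told apart from less H3K27ac per cell.

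RIP140, the product of *Nrip1*, is a corepressor that nuclear receptors and other transcription factors recruit to DNA, where it brings in enzymes that remove histone acetylation. H3K27ac marks promoters and enhancers in use, and a gene is often served by several enhancers spread over its introns and its flanks. In CMs the ERR, MEF2, GATA and TEAD factors bind many of these enhancers.

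The sequences behind the gained regions are shown first for windows that hold an ERR or MEF2 motif, since both factors regulate energy genes of CMs. The central 200 bp of every KO-only region nearest the 99 genes was searched on both strands of GRCm38. ERR (TCAAGGTCA) matched in 1 window (0.297%, against 0.665% of the windows of all regions and 0.826% of those of KO-only regions at other genes) and MEF2 in 5 (1.48%, against 1.07% in both). The ERR match lay upstream of *Heyl*, a repressor induced by Notch signaling, in an intergenic window at chr4:123220526-123220725, which also held the AP-1 letters TGANTCA. Of the MEF2 matches, 4 are shown, which lay in introns of *Shmt1*, an enzyme of folate metabolism, at chr11:60796579-60796778, of *Sema4b*, a semaphorin, at chr7:80191858-80192057, of *Mettl16*, an RNA methyltransferase, at chr11:74780955-74781154, and of *Cntn4*, a neuronal adhesion protein, at chr6:106263494-106263693. These genes, apart from *Heyl*, are named after their matches were seen. All windows are written on the plus strand with the matches in capitals.
Heyl: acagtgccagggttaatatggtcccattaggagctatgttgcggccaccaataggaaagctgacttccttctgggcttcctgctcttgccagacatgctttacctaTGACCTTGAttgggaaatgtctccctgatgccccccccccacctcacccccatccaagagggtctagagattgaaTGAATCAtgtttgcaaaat
Shmt1: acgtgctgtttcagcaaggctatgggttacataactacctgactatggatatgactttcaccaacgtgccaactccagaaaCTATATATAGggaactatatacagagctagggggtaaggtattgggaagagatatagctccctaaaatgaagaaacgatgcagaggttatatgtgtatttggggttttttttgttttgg
Sema4b: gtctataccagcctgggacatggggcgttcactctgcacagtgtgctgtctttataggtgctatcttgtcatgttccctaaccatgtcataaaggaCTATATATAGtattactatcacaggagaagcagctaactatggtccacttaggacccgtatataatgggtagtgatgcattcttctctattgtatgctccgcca
Mettl16: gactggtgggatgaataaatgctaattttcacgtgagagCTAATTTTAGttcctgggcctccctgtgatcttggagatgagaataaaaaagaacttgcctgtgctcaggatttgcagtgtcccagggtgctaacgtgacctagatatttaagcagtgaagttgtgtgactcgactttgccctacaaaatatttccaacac
Cntn4: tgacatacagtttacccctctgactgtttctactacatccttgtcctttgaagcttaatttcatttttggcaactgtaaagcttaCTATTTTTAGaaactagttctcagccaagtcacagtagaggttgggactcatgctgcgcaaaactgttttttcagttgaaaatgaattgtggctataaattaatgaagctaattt

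Windows with GATA or AP-1 letters are shown from 4 of the genes named by rule, for their many or wide gained regions or as part of a functional list. Other genes named by rule, such as *Dot1l*, *Myh10* and *Syk*, also had such windows, and no rule picked the 4. GATA matched in 18 of all 337 windows (5.34%, against 3.09% of the windows of all regions) and AP-1 in 27 (8.01%, against 6.21%). The GATA motif (AGATAAG) matched in the intergenic window upstream of *Gpam*, which encodes the acyltransferase that starts triglyceride synthesis, at chr19:55138248-55138447. It also matched in an intron of *Trim9*, a ubiquitin ligase, at chr12:70247510-70247709, and upstream of *Tmod1*, which caps the pointed ends of thin filaments, in an intron of the neighboring *Tdrd7* at chr4:46033331-46033530. AP-1 matched in an intron of *Rin3*, an activator of Rab5 GTPases, at chr12:102338463-102338662. Capitals mark the matches, and the plus strand is shown.
Gpam: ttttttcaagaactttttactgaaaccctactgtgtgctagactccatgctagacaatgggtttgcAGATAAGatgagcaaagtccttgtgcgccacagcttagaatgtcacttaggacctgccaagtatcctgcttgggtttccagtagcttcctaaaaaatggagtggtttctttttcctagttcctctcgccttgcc
Trim9: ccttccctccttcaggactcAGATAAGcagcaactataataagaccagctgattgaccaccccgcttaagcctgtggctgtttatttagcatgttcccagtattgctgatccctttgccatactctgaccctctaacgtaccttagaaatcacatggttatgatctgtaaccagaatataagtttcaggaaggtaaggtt
Tmod1: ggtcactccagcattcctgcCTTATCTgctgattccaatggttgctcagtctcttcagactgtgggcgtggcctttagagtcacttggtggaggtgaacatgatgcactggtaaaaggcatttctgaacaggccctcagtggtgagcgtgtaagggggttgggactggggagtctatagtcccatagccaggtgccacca
Rin3: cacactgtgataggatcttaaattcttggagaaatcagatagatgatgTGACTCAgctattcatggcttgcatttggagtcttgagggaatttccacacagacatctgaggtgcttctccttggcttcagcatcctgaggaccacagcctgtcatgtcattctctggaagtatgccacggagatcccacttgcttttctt

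RefSeq promoters (GRCm38.p6, from 250 bases before to 50 bases after the start) were matched by symbol for 73 of the 99 genes. A KO region touched 54 of these (74.0%) and a control region 39 (53.4%), compared with 39.5% and 37.4% of all RefSeq promoters. For 15 of the 73 (20.5%), the promoter lay wholly in a KO region with no base in a control region, as did 4.17% of the 26793 RefSeq promoters on the same chromosomes. The choice of genes favors these patterns, so nothing is read from the differences. The 250 bases before the start are shown for 4 of these 15, each with few or no annotated exon bases and chosen after these values were seen: *Chka*, a choline kinase (chr19:3851523-3851772, plus strand), *Stc2*, a secreted glycoprotein (chr11:31370062-31370311, minus strand), *Angptl2*, a secreted angiopoietin-like protein (chr2:33215711-33215960, plus strand), and *Nup210*, a nucleoporin (chr6:91116827-91117076, minus strand). None of these 4 stretches held the letters of any of the 5 motifs, so they have no capitals, and their GC content was 68.0%, 64.4%, 66.8% and 71.2%, respectively.
Chka: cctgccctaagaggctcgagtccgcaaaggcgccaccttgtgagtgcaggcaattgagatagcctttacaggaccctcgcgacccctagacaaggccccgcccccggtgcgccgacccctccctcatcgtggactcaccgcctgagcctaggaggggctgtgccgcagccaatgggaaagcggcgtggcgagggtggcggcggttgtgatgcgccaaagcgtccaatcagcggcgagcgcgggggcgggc
Stc2: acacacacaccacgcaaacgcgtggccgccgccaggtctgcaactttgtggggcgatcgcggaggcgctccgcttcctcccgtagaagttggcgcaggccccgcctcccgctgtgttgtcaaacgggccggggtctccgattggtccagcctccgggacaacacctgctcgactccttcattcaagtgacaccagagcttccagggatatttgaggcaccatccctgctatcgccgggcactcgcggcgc
Angptl2: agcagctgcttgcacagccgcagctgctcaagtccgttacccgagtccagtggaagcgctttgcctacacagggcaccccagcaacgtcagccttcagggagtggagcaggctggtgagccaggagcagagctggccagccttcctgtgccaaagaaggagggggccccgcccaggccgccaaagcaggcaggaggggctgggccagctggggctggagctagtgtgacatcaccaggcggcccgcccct
Nup210: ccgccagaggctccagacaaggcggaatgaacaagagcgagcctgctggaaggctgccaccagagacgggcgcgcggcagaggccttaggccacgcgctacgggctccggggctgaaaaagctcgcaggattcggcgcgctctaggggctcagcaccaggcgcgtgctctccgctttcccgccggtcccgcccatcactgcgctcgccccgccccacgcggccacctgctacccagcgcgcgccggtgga

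The genotype and the cell type were checked in the lists. *Nrip1* (chr16:76287400-76373827, minus strand) had similar numbers of regions in both genotypes: 24 KO and 23 control regions were nearest to it, of which 5 were KO-only and 4 control-only, so it was not among the 99 genes. Within its last exon (chr16:76287400-76295015), control regions covered 2904 bp and KO regions 0 bp. These are values of the merged lists, and deletion in each replicate was not checked here. Of 12 defining CM markers, including *Myh6*, *Tnnt2* and *Ryr2*, all 12 had a region over an annotated TSS in both genotypes. They had 21 KO-only and 18 control-only regions, and a summed length of 267707 bp in RIP140-null CMs against 253149 bp in control CMs. Cover was longer in RIP140-null CMs at 8 genes and shorter at 4, and the longest control cover was at *Pln* (40830 bp in RIP140-null CMs against 60688 bp).

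Markers of other heart cells were also present. All 12 endothelial markers were nearest to at least 1 region, with a TSS covered for 11 in RIP140-null CMs and 12 in control CMs. They had 19 KO-only and 47 control-only regions, which summed with the shared ones to 329399 bp in RIP140-null CMs against 319530 bp in control CMs, with longer cover in RIP140-null CMs at 7 genes and shorter cover at 5, and the longest control cover was at *Kdr* (84563 bp in RIP140-null CMs against 77857 bp in control CMs). The 12 mural cell markers had a TSS covered for 7 genes in RIP140-null and 6 in control CMs, and a summed length of 90761 bp and 76142 bp, respectively, with longer cover in RIP140-null CMs at 7 genes and shorter cover at 3, the longest control cover at *Abcc9* (27505 bp and 20356 bp) and no region nearest *Pdgfrb* or *Rgs5*. Of the 12 fibroblast markers, 0 had a TSS covered in RIP140-null and 1 in control CMs. Their summed length was 71006 bp and 64607 bp, with the longest control cover at *Dpt* (25712 bp and 20099 bp), yet 4 of the 7 with a region had shorter cover in RIP140-null CMs and 3 longer, with 4 KO-only and 10 control-only regions, and *Col1a1*, *Col1a2*, *Lum*, *Tcf21* and *Ddr2* had no region. Of the 12 macrophage markers, 0 had a TSS covered in either genotype, 9 had no region nearest to them, among them *Csf1r*, *Adgre1* and *Cx3cr1*, and the summed length was 63575 bp in RIP140-null CMs against 71007 bp in control CMs, with the longest cover at *Ptprc* (59852 bp and 66167 bp). Of these 60 marker genes, those nearest a region were 12 CM, 12 endothelial, 10 mural cell, 7 fibroblast and 3 macrophage markers. None was among the 99 genes, beside 0.710% of all genes nearest a region, so nothing is read from this. The part of other cell types in the gained regions was not tested.

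Gains of at least 3 regions without losses were uncommon. Of the 45517 KO regions on chromosomes 1 to 19 and X, 9785 (21.5%) were KO-only, and of the 53750 control regions, 15844 (29.5%) were control-only. At least 3 KO-only regions were nearest to 983 of the 13942 genes (7.05%), and 99 (0.710% of the 13942) of these had 0 control-only regions. The mirror pattern, at least 3 control-only and 0 KO-only regions, was found at 432 genes (3.10%). This order depended on the settings. With equal numbers of the widest regions, which removed control regions only, 250 genes met the rule and 162 the mirror pattern. With regions merged from 3 or more peaks, the counts were 131 and 83. Under all other alternatives, the mirror pattern was the more common. Among the 983 genes, the 99 made up 10.1% (95% Wilson interval 8.34% to 12.1%), whereas the mirror genes made up 23.4% (21.5% to 25.3%) of the 1849 genes with at least 3 control-only regions. These intervals cover counting error only, and nothing is read from the order of the shares, since the same lists chose the genes.

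**Figure D1:**
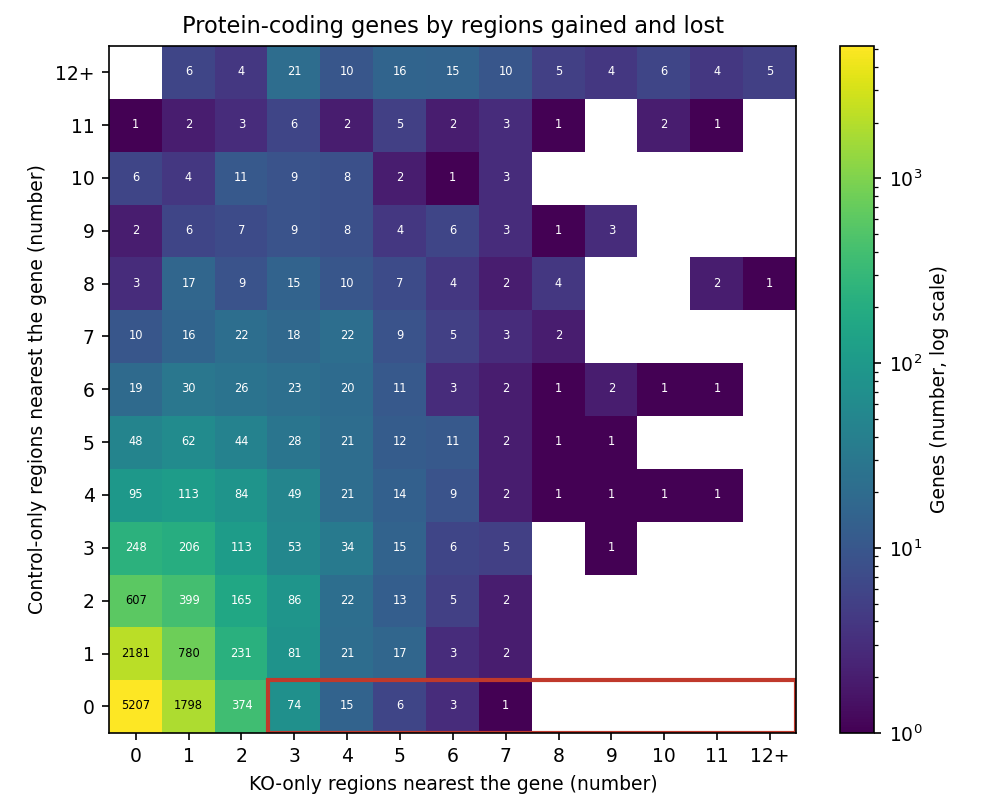
Number of protein-coding genes (color, log scale, and printed counts) by the number of KO-only regions (x axis) and control-only regions (y axis) nearest to them, with 12 or more pooled. The red frame holds the 99 genes, 74 of which sit at 3 KO-only regions, beside 374 genes with 2 KO-only and 0 control-only regions.

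Most of the 99 genes lay at the limit of the rule. KO-only regions numbered 3 at 74 genes, 4 at 15, 5 at 6, 6 at 3 and 7 at 1 gene, and summed to 337 regions. Just outside, 374 genes had 2 KO-only and 0 control-only regions, and 124 genes had at least 3 KO-only and exactly 1 control-only region. Of the latter, *Map4*, a microtubule-associated protein, and *Tcf7l2*, a transcription factor of Wnt signaling, each had 7 KO-only regions, and *Htra1*, a secreted protease, had 6. The median number of KO regions at the 99 genes was 6 (range 3 to 15), and of control regions 3 (range 0 to 13). The 884 other genes with at least 3 KO-only regions had more regions of both genotypes, with medians of 12 KO and 14 control regions. The stretch of genome nearest to a gene's TSSs had a median of 104.2 kb for the 99 genes, 304.8 kb for those 884 genes and 56.2 kb for all 13942 genes.

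The genes were also grouped by their number of control regions, a count that enters the rule. Of 70 genes with at least 3 KO-only and at most 2 control regions, 43 (61.4%, interval 49.7% to 72.0%) had no control-only region. The share was 23.7% (31 of 131 genes) with 3 to 5 control regions, 9.82% (22 of 224) with 6 to 10, and 0.980% (3 of 306) with 11 to 20, and it was 0 of 252 genes with more. The 3 genes in the range of 11 to 20 were *Parva*, *Gatad2a* and *St3gal5*, the last of which makes the ganglioside GM3 and was named after its values were seen. The 99 genes lay on all chromosomes but 15 and X. The highest shares were those of chromosome 12, with 7 of 483 genes nearest a region (1.45%), and chromosome 11, with 15 of 1122 (1.34%). Over all chromosomes the share was 0.710%. The counts per chromosome are small, and nothing is read from them.

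*Rin3* (chr12:102283048-102390855) had the most KO-only regions, 7. It had 15 regions in RIP140-null CMs, covering 55725 bp, and 9 in control CMs, covering 31616 bp. Its region over the 5′ end was shared, whereas the gained regions flanked it, with 5 in introns of *Rin3* and 2 upstream in introns outside *Rin3*, the widest of 5702 bp at chr12:102371539-102377240. The gap from these regions to the nearest control region ranged from 401 bp to 17636 bp. *Parva*, which encodes a focal adhesion protein, *Dot1l*, the H3K79 methyltransferase, and *Trim9* each had 6 KO-only regions. *Trim9* had a single control region, of 787 bp, and covered 11620 bp in RIP140-null CMs, and all 6 gained regions lay inside the gene in its 3′ part. At *Dot1l*, the region over the 5′ end was shared and all 6 gained regions lay further inside the gene, which covered 25208 bp in RIP140-null CMs against 12988 bp in control CMs. *Parva* covered 62969 bp and 46625 bp, respectively.

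**Figure D2:**
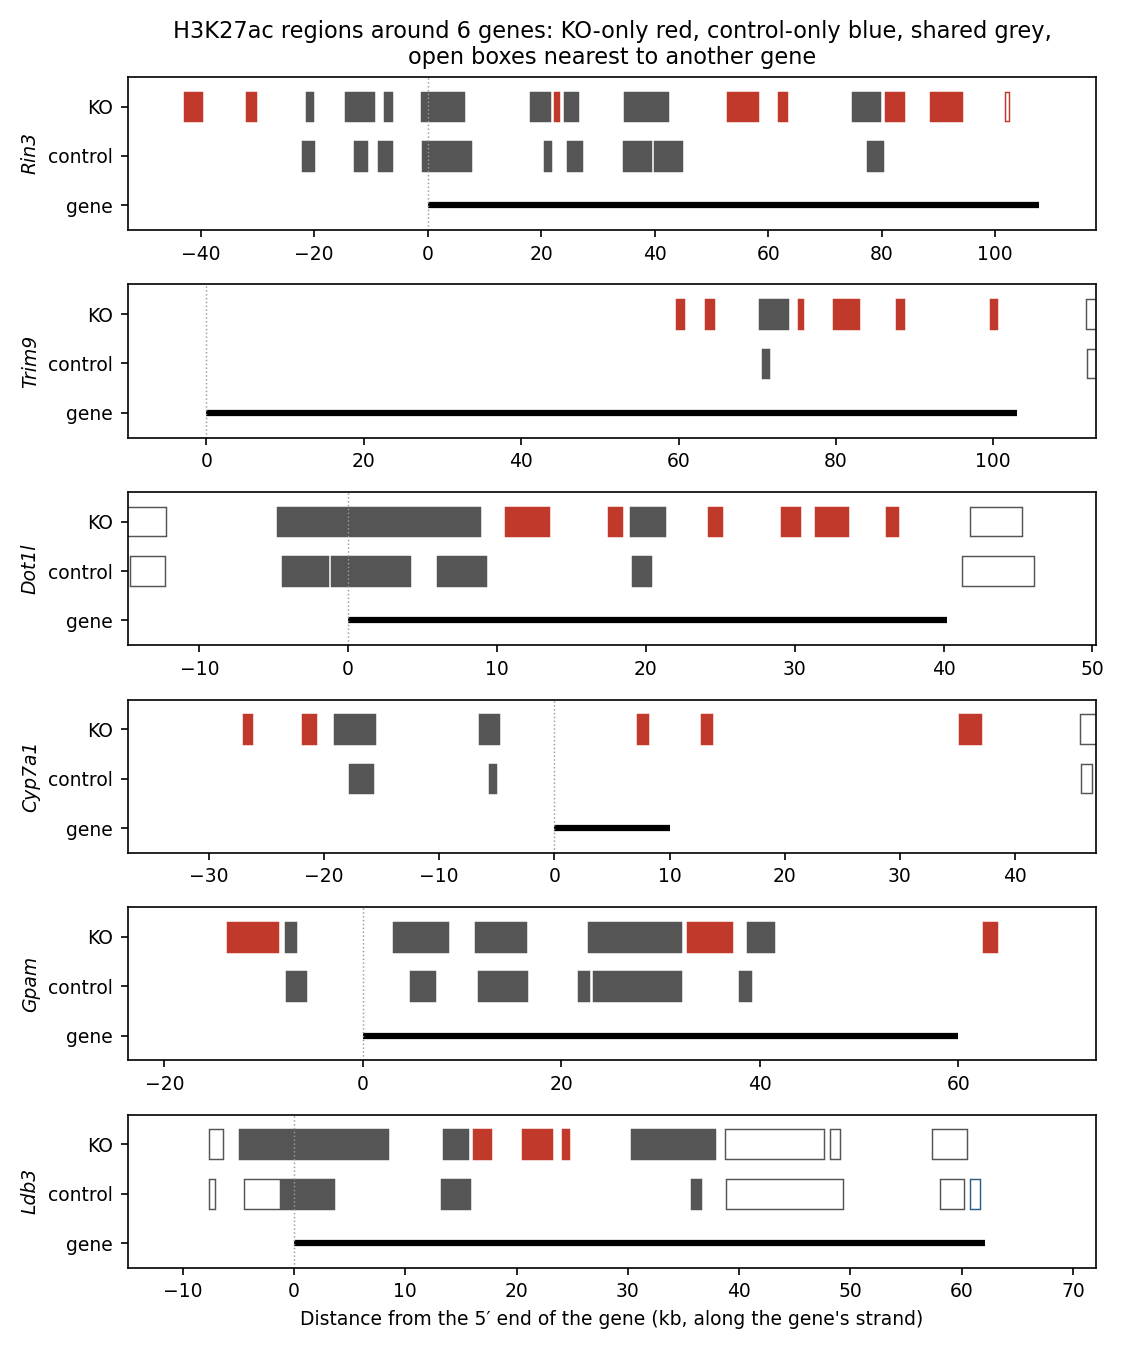
H3K27ac regions in RIP140-null (KO) and control CMs around 6 of the 99 genes, by distance from the 5′ end of the gene (kb; black line), with KO-only boxes red, control-only boxes blue, shared boxes grey and boxes nearest another gene open. *Rin3* shows 7 red boxes, *Trim9* and *Dot1l* 6 each, *Cyp7a1* 5, and *Gpam* and *Ldb3* 3 each.

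KO-only regions numbered 5 at *Ahdc1*, a DNA-binding AT-hook protein, *Pofut2*, an O-fucosyltransferase, *Adgrd1*, an adhesion receptor, *Dirc2*, a lysosomal transporter, *Syk*, a tyrosine kinase of immune receptors, and *Cyp7a1*, the rate-limiting enzyme of bile acid synthesis. *Ahdc1* was already broadly covered, with 70381 bp in RIP140-null CMs against 47568 bp in control CMs. *Adgrd1* and *Dirc2* each had a single control region and covered 16937 bp and 13616 bp in RIP140-null CMs, against 2075 bp and 3471 bp in control CMs. At *Cyp7a1* no region of either genotype lay over an annotated TSS, and cover was 11026 bp in RIP140-null CMs against 2705 bp in control CMs. *Pofut2* gained a region of 1903 bp over its TSS (chr10:77258330-77260232) that lay 22782 bp from the nearest control region. *Syk* covered 19204 bp in RIP140-null CMs against 9836 bp in control CMs, with 3 gained regions in its introns and 2 intergenic ones 115423 bp and 133346 bp downstream of the nearest TSS. *Myh10*, a nonmuscle myosin heavy chain, and *Gatad2a*, a subunit of the NuRD corepressor complex, each had 4 KO-only regions. Their cover was 21109 bp against 14570 bp and 49615 bp against 30661 bp, respectively.

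Among the 99 genes, the widest single KO-only region, 6037 bp (chr9:70546243-70552279), lay in an intron of *Sltm*, an RNA-binding protein, and the next widest was that at *Rin3*. A region of 5432 bp (chr12:9308277-9313708) was nearest to *Osr1*, a zinc finger factor of heart and kidney development, although its center lay at -259124 bp from the TSS. The 3 KO-only regions of *Osr1* spanned 507626 bp, the largest span among the 99 genes, and neither genotype had a region over its TSS. At *Gpam* the widest had 5155 bp (chr19:55135771-55140925), 842 bp from the nearest control region, and at *Exd2*, an exonuclease, 5115 bp (chr12:80468477-80473591) in an intron. Wide gained regions thus lay both close to control regions and, as at *Osr1* with a gap of 69956 bp, far from them.

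No control region was nearest to 8 of the 99 genes, which are named here after their values were seen. They were *Shmt1*, *Stmn1*, *Stc2*, *Gm10118*, *Iqch*, *Angpt4*, *Tbx18* and *Rbm47*, each with exactly 3 KO regions. *Shmt1* had the longest cover of these in RIP140-null CMs, 7880 bp, and *Rbm47*, an RNA-binding protein, the shortest, 2455 bp. *Tbx18*, a T-box factor of the embryonic epicardium, lay farthest from the regions of the control list. The gaps between its gained regions and the nearest control region were 290883 bp to 406003 bp. Gained regions lay over an annotated TSS of *Shmt1*, *Stmn1*, which encodes a microtubule-destabilizing protein, *Stc2* and *Tbx18*. At *Angpt4*, a ligand of the TIE2 receptor, *Rbm47* and *Gm10118*, neither genotype had a region over a TSS.

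Gained regions were about as narrow here as elsewhere: the median width was 1323 bp (range 514 to 6037 bp) over the 337 KO-only regions and 1278 bp over the 9448 at other genes. By their centers, 204 (60.5%, interval 55.2% to 65.6%) lay in introns, 87 (25.8%, 21.4% to 30.7%) were intergenic, 24 (7.12%, 4.83% to 10.4%) lay in exons and 22 (6.53%, 4.35% to 9.69%) in promoters, which began 1000 bp before a TSS and ended 100 bp after it. At other genes, 52.1% of KO-only regions were intronic, 34.5% intergenic and 8.60% in promoters, and at the 884 other genes with at least 3 KO-only regions, 59.7%, 35.5% and 2.56%, respectively. Of the 337 regions, 223 (66.2%) lay inside the body of the gene they were assigned to, compared with 57.5% at other genes. The median distance from center to TSS was 10536 bp, against 15421 bp for KO-only regions at other genes and 20032 bp for control-only regions at the 432 mirror genes. At the 884 other genes with at least 3 KO-only regions, it was 30296 bp. With promoters widened to 2000 bp before and 500 bp after a TSS, 36 regions were counted there in place of 22.

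The gap from a gained region to the nearest control region had a median of 7540 bp, against 4916 bp for KO-only regions at other genes. It was at most 1000 bp for 31 regions (9.20%) and at most 5 kb for 128 (38.0%), compared with 13.0% and 50.5% at other genes. Control-only regions at the mirror genes lay about as far from KO regions, with a median gap of 8102 bp, 8.67% within 1000 bp and 38.3% within 5 kb. At 29 of the 99 genes every KO-only region was more than 5 kb from a control region. Regions of 1 gene were spread over a median of 42188 bp from the first to the last, with the shortest spread, 7105 bp, at *Sec14l5*, named after its values were seen. At 64 genes a control region lay between the first and the last KO-only region, and at 35 genes none did. Neighboring genes had both losses and gains: at least 1 neighbor had control-only regions at 73 of the 99 genes (73.7%) and KO-only regions at 69 (69.7%), compared with 59.3% and 53.3% of all 13942 genes.

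**Figure D3:**
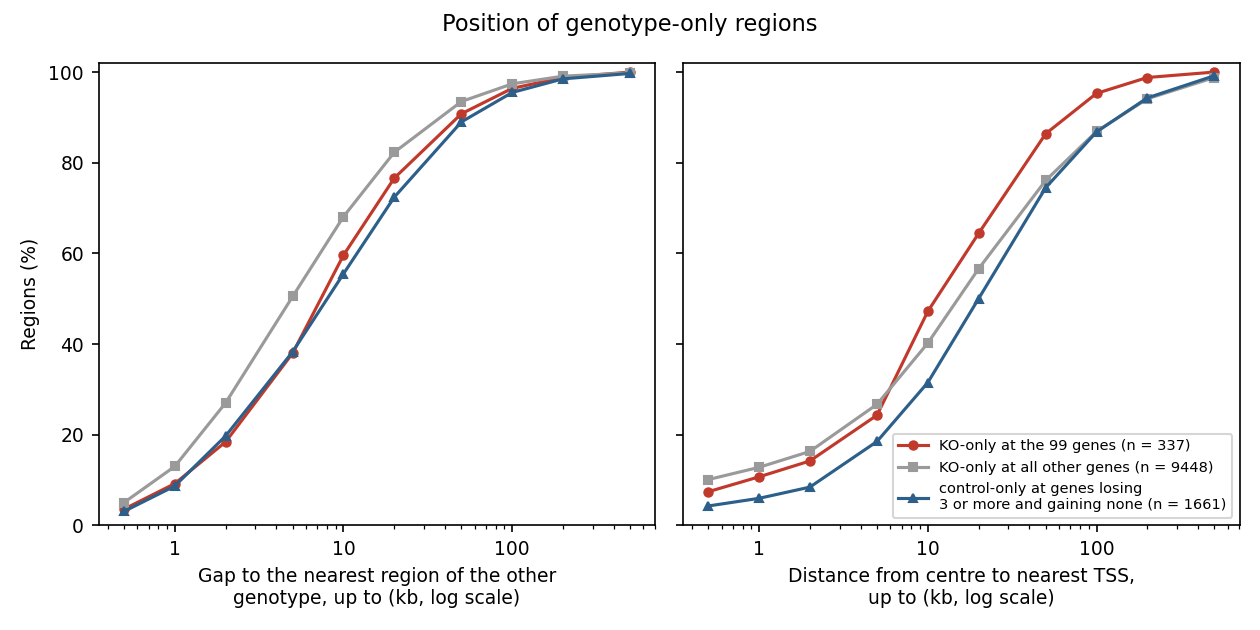
Cumulative share of genotype-only regions (%) by the gap to the nearest region of the other genotype (left, kb, log scale) and by the distance from the region's center to the nearest TSS (right, kb, log scale). Red circles are the 337 KO-only regions at the 99 genes, grey squares the 9448 KO-only regions at other genes and blue triangles the 1661 control-only regions at genes with the mirror pattern; 38.0% of the first and 50.5% of the second lay within 5 kb of the other genotype.

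Each region's name gives the number of replicate peaks that were merged into it, of which there are at least 2. Only 45 of the 337 KO-only regions (13.4%, interval 10.1% to 17.4%) were made of 3 or more peaks, compared with 172 of the 344 shared KO regions at the same genes (50.0%, 44.7% to 55.3%) and 12.2% of KO-only regions at other genes. At 63 of the 99 genes no KO-only region had 3 or more peaks, and at 0 genes did 3 of them. Gained regions thus rested mostly on the smallest number of peaks that the lists admit. When both lists were limited to regions of 3 or more peaks, 131 genes met the rule and 4 of the 99 were among them, *Gpam*, *Ldb3*, *St3gal5* and *Trim11*, the last named after its values were seen. The limit also removed control regions, so that shared KO regions could turn KO-only.

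At the TSS itself, both genotypes had H3K27ac at most of the 99 genes, as they did at most genes nearest a region. A TSS lay in regions of both genotypes at 60 of the 99 genes (60.6%) and in no region at 21 (21.2%). Among all genes nearest a region, these shares were 68.0% and 20.3%. A TSS lay in a KO region only at 18 of the 99 genes and in a control region only at 0. Over all 13942 genes, 7.83% had a TSS in a KO region only and 3.92% in a control region only, but the rule, which allows no control-only region, largely sets these counts for the 99 genes. A KO-only region covered an annotated TSS at 29 genes. Some of these also had another TSS in a control region, as at *Dot1l*, *Grb2*, the adaptor of receptor tyrosine kinases, *Rb1*, the retinoblastoma protein, and *Dnmt3a*, a DNA methyltransferase, the last 3 of which were named after their values were seen. Gains at a start site were thus found both at genes with another start in a control region and at genes with no start in one.

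Summed over all regions of a gene, KO cover exceeded control cover at 89 of the 91 genes with regions in both lists. Over the series it did so at 6583 of 11929 such genes. Just outside the rule, the counts were 275 of 288 genes with 2 KO-only and 0 control-only regions, and 120 of 124 with at least 3 KO-only and exactly 1 control-only region. The median KO cover of the 99 genes was 13088 bp and the median control cover 6942 bp, and the median log2 ratio over the 91 genes was 0.83. It was 0.05 over the 11929 genes of the series with regions in both lists, 0.10 over the 884 other genes with at least 3 KO-only regions, and -0.46 over the mirror genes. Just outside the rule it was 0.72 over genes with 2 KO-only and 0 control-only regions, and 0.55 over genes with at least 3 KO-only and exactly 1 control-only region. Among the 91 genes, the exceptions were *Map2k5*, a kinase of the ERK5 pathway, at -0.01 (17247 bp in RIP140-null CMs against 17426 bp in control CMs), and *Shld1*, of the shieldin complex of DNA repair, at -0.07 (48015 bp and 50368 bp). Both were named after their values were seen. The largest log2 ratios among the 20 genes picked by rule were 3.88 at *Trim9*, 3.12 at *Osr1* and 3.03 at *Adgrd1*, and the smallest was 0.36 at *Tmod1*. When bases nearest to each gene were counted in place of whole regions, an alternative chosen after seeing the data, the median was 0.82 over 92 genes, and *Shld1* turned to 0.01 (46571 bp and 46141 bp). These 3 genes lost their KO-only regions under some settings. *Trim9* had 0 KO-only regions with the 5′ end of the gene record as its only TSS or with TSSs of protein-coding transcripts. With regions of 3 or more peaks, *Trim9* also had 0, *Adgrd1* 1 and *Osr1* 2. *Osr1* and *Adgrd1* each had 0 with the nearest TSS among genes of all types, and 1 when regions more than 100 kb from the TSS were left out.

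**Figure D4:**
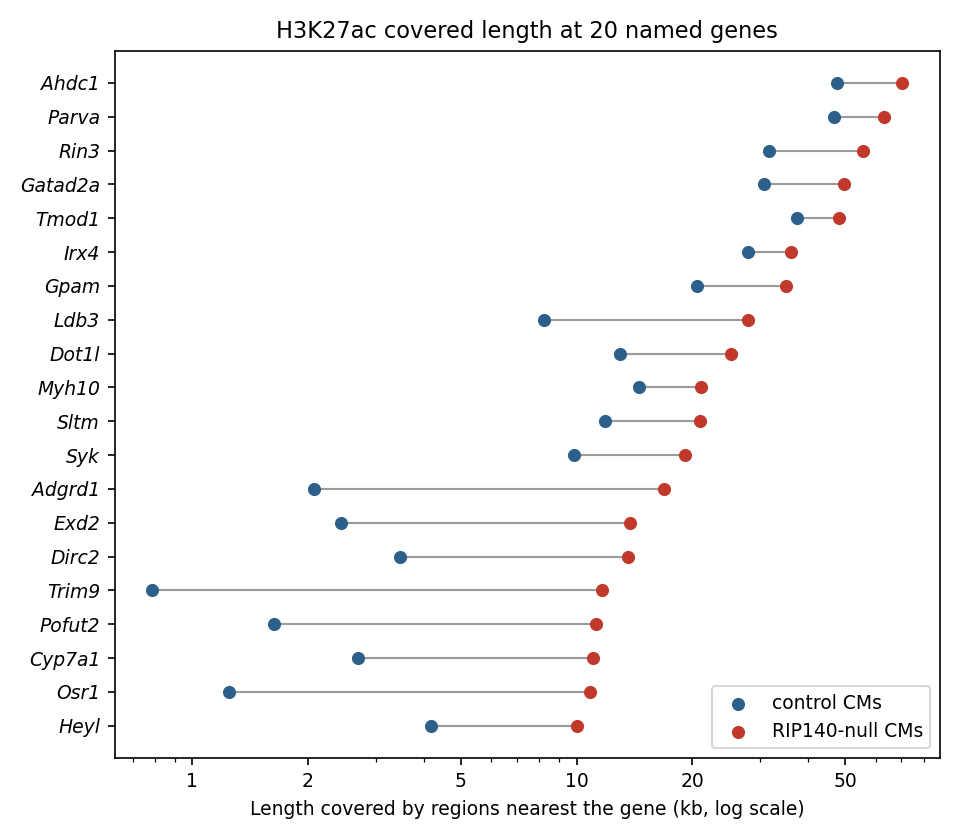
Length covered by H3K27ac regions nearest each of 20 named genes of the 99 (kb, log scale) in control CMs (blue) and RIP140-null CMs (red), 1 value per genotype from the merged lists. The red point lies to the right of the blue point at every gene shown, from *Ahdc1* (70381 bp against 47568 bp) to *Heyl* (10020 bp against 4188 bp).

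Regions that both genotypes shared were slightly wider in RIP140-null CMs, at these genes and over the series alike. The KO list as a whole had fewer and wider regions (45517, median 2291 bp) than the control list (53750, median 1846 bp). Regions were merged across lists into loci held by both, which gave 322 shared loci at 91 of the 99 genes. Their median log2 ratio of KO to control length was 0.12, against 0.08 over all 32645 shared loci and 0.03 over the 1581 loci of the mirror genes. Over 1.5-fold wider in RIP140-null CMs were 80 of the 322 loci (24.8%), compared with 5660 (17.3%) of all loci, and over 1.5-fold narrower were 37 (11.5%), compared with 3352 (10.3%). Shared loci come from the same contrast as the choice of genes, so the difference was not tested.

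Functions were compared with lists of genes known to act in the heart. Of 28 lists with 617 genes, 590 of which were nearest a region, 5 genes were among the 99, which is 0.847% (interval 0.363% to 1.97%) beside 0.710% of all genes nearest a region. They came from 5 different lists, and the other 23 lists, among them fatty acid uptake and oxidation (34 genes nearest a region), the tricarboxylic acid cycle (19), the respiratory chain (22), calcium cycling (22) and the ERR, PPAR and PGC-1 regulators (15), had none. A share so near the background is no result about any list. *Acss1*, the mitochondrial acetyl-CoA synthetase, was on none of the lists but was among the 99, with 3 KO-only regions and a cover of 25459 bp in RIP140-null CMs against 23442 bp in control CMs, and is named after its values were seen. Among symbol families, 2 of 264 Slc genes (*Slc12a7* and *Slc35c1*) and 1 of 332 Zfp genes (*Zfp592*) were members, as were *Ppp2r2a* of 66 Ppp, *Rab11fip4* of 60 Rab and *Usp10* of 50 Usp genes, whereas the Kcn, Arhgap, Arhgef and Tmem families had 0.

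In energy metabolism the 1 listed gene was *Gpam* (1 of 21 genes of triglyceride synthesis and lipid droplets). Its KO-only regions lay at -11110 bp from the nearest TSS, in an intron, and at 35405 bp from the nearest TSS beyond the 3′ end, and its cover was 35073 bp in RIP140-null CMs against 20609 bp in control CMs. Of its 3 gained regions, 2 lay within 1000 bp of a control region (635 bp and 842 bp). When a gap of up to 1000 bp counted as shared, *Gpam* no longer met the rule.

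In the sarcomere, *Ldb3*, which anchors alpha-actinin at the Z-disc, and *Tmod1* were members. The 3 gained regions of *Ldb3* lay within 8623 bp inside the gene, at distances from 335 bp to 8292 bp from the nearest control region, and 2 of them had 3 or more peaks. Its cover was 27990 bp in RIP140-null CMs against 8250 bp in control CMs (log2 1.76). With bases nearest *Ldb3* counted in place of whole regions, the ratio was 1.53 (24688 bp and 8532 bp). Neither count includes cover nearest another gene, although such regions of both genotypes also lay inside *Ldb3*. Among them were a shared control region 38863 bp to 49304 bp from its 5′ end and a control-only region at 60730 bp to 61649 bp. A control region at -4485 bp to -1297 bp, under a KO region counted here, was also nearest another gene. The ratios thus depend on the assignment, and the gene body as a whole was not compared. When a gap of up to 1000 bp counted as shared, 2 KO-only regions were left at *Ldb3*, which then did not meet the rule. *Tmod1* had 10 control regions, all shared, and its 3 gained regions of 895 bp to 1622 bp lay upstream of the gene and near its 3′ end. Its cover was 48206 bp against 37562 bp, and it met the rule under 3 of 10 alternatives.

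Among transcription factors, *Irx4*, a homeobox factor of the ventricles, had 2 gained regions more than 50 kb upstream and 1 centered on an exon, of 839 bp to 1826 bp. Its cover was 36090 bp in RIP140-null CMs against 27954 bp in control CMs, most of it in shared regions of up to 19390 bp. *Heyl* had gained regions at -12930 bp and -5413 bp from the nearest TSS and 1 in an intron, while the region over its 5′ end was shared and of near equal width (1143 bp in RIP140-null CMs against 1164 bp in control CMs). Its cover was 10020 bp against 4188 bp. *Heyl* was 1 of 7 genes that met the rule under 9 of 10 alternatives, and the alternative it failed was the limit to regions of 3 or more peaks.

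The sequence of the gained regions was described by GC content, repeats and motif letters. The median GC content of the central 200 bp was 48.0% (quartiles 41.5% and 53.0%), against 46.5% in KO-only regions at other genes, 44.0% in control-only regions and 48.0% in shared KO regions at the 99 genes. Repeats, marked in lower case in the genome, filled 17.5% of the bases on average and 17.0% at other genes. AP-1 letters were found in 27 of 337 windows (8.01%, interval 5.56% to 11.4%), compared with 6.21% of all 99267 windows of both lists. GATA letters were found in 18 windows (5.34%, 3.40% to 8.28%), compared with 3.09% of all windows and 3.10% of windows of KO-only regions at other genes, and TEAD letters (ACATTCC) in 12 (3.56%, 2.05% to 6.12%), compared with 2.95% of all windows. MEF2 matched in 5 windows (1.48%, 0.635% to 3.43%) against 1.07% of all, and ERR in 1 (0.297%, 0.0524% to 1.66%) against 0.665%. Regions of 1 gene are neighbors and not replicates, so these shares were not compared by a test. In the central 500 bp, the shares were 10.4% against 7.43% of all regions for GATA, 9.20% against 7.48% for TEAD, 16.6% against 14.9% for AP-1, 3.86% against 2.54% for MEF2 and 1.19% against 1.67% for ERR. When whole regions were searched, the shares lay below those of all regions for ERR (4.75% against 8.94%), MEF2 (8.01% against 10.2%), GATA (log2 ratio -0.51), TEAD (-0.64) and AP-1 (-0.51). Compared with whole KO-only regions at other genes, which are of similar width, they were 4.75% against 5.70% for ERR and 8.01% against 5.72% for MEF2. For GATA they were 75 of 337 against 1982 of 9448 regions, for TEAD 20.8% against 21.6% and for AP-1 35.9% against 37.9%.

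The AP-1 matches were spread over 26 of the 99 genes, the GATA matches over 17, the TEAD matches over 12, the MEF2 matches over 5 and the ERR match fell in 1. In 0 of the 337 windows did matches of different motifs overlap. Among the RefSeq promoters of 73 genes, 8 held AP-1 letters and 2 (2.74%) TEAD letters, compared with 7.89% and 3.94% of all 27025 promoters, and 0 held ERR, MEF2 or GATA letters, which 0.377%, 0.544% and 3.09% of all promoters held. A match is a run of letters and not a bound site.

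Which genes met the rule depended on how regions were assigned and matched. With the nearest TSS taken among genes of all types, 108 genes met it, of which 52 were among the 99 (52.5% of the 99 and 48.1% of the 108). With the 5′ end of the gene record as its only TSS, 63 of the 99 remained. A single region overlapping by 50% of both as the condition for sharing left 54 genes, 39 of them among the 99, and keeping regions at least 1000 bp wide gave 151 genes, 50 of them among the 99. With equal numbers of the widest regions, 250 genes met the rule and all 99 were included, because that setting removed control regions only. Under the gap of up to 1000 bp, 85 of the 99 were kept, and within 100 kb of the TSS, 91. Met under 9 of 10 alternatives, the most for any gene, was the rule at *Angptl2*, *Crispld2*, *Heyl*, *Mettl16*, *Rap1gds1*, *Sccpdh* and *Stmn1*. The 10 include the setting with equal numbers of the widest regions, which none of the 99 genes could fail. *Parva* and *Irx4* met it under 5, and *Rin3*, *Dot1l* and *Gpam* under 7.

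**Figure D5:**
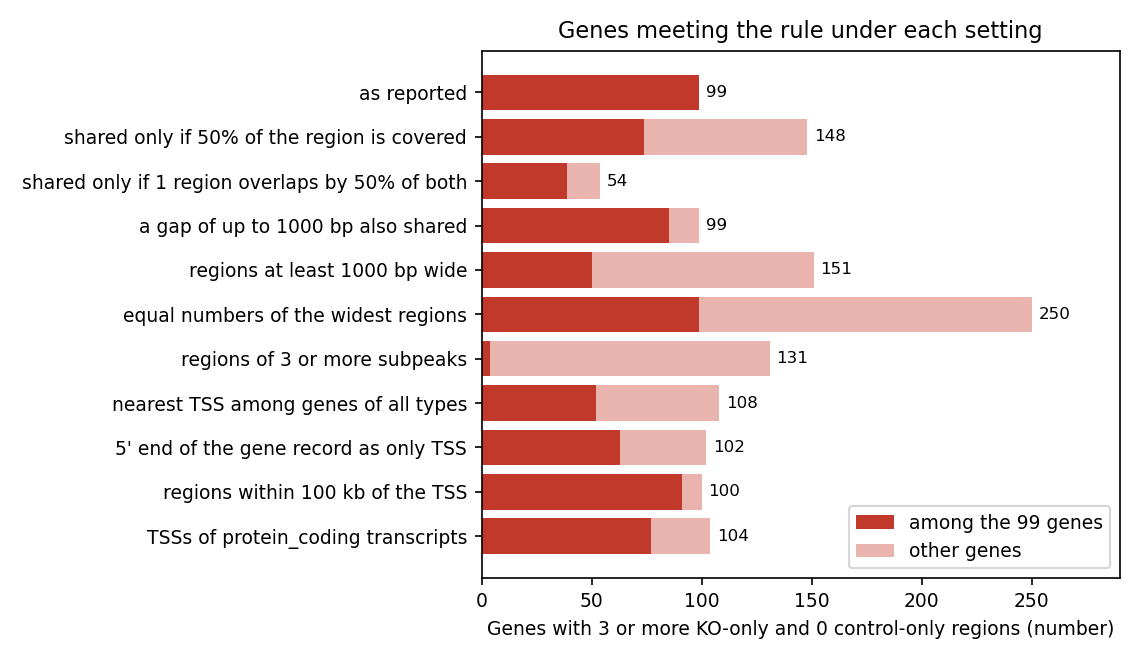
Number of genes with 3 or more KO-only and 0 control-only regions under each setting (bars, one setting per line), split into genes among the 99 (dark) and other genes (light). The dark part runs from 4 genes with regions of 3 or more subpeaks to 99 with equal numbers of the widest regions.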

How the data were processed

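In the submitters' processing notes, reads were aligned with Bowtie2 2.4.2 and regions were called with HOMER 4.11.1 in each H3K27ac replicate against IgG, then merged and kept if held by at least 2 of 3 replicates. These merged lists were the input here. Regions on chromosomes 1 to 19 and X were assigned by their centers to the nearest TSS of a protein-coding gene (GENCODE M21, GRCm38), and 1 bp of overlap made a region shared. Motifs were searched on both strands of GRCm38 with plain string matching. Python 3.11.15, numpy 2.4.6, scipy 1.17.1, pysam 0.24.0, samtools 1.23.1 and matplotlib 3.10.9 were used. Shares have 95% Wilson intervals, which for regions treat neighbors at 1 gene as independent. Named genes were those with the most KO-only regions, those with the widest single KO-only regions, those on the functional lists, the genes with the most KO-only regions and 1 control-only region, and *Nrip1*. All other members were named after their values were seen. The members and the lists were chosen with earlier results of these data known. Alternatives varied the overlap, the width, the number of regions, the peaks per region, the TSSs, the distance and the motif window. TSSs of protein-coding transcripts and bases nearest a gene were added after seeing the data. The code was tested on simulated data.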

Additional observations from a re-analysis of the deposited data

How the results depend on the processing

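Several values moved with the settings. With 50% of a region's length needed for sharing, 507 KO-only regions were counted at the genes that met the rule. With 1 region overlapping by 50% of both, there were 54 genes with 171 KO-only regions and a median covered-length log2 ratio of 1.07. Regions of at least 1000 bp gave 151 genes and 517 regions, and equal numbers of the widest regions, which removed control regions only, gave 250 genes and 904 regions. With regions of 3 or more peaks, the median log2 ratio was 1.10. With the wider promoter limits, 36 regions lay in promoters. With whole regions searched, the log2 ratio of the motif share to that of all regions was -0.51 for GATA, -0.64 for TEAD and -0.51 for AP-1, against 0.79, 0.27 and 0.37 in the central 200 bp. Whole KO-only regions at other genes held GATA in 1982 of 9448, TEAD in 21.6% and AP-1 in 37.9%, against 75 of 337, 20.8% and 35.9% at the 99 genes. The cause of these shifts was not tested. No paired analysis was possible because the lists are merged per genotype. For the same reason no replicate could be left out, and neither sequencing depth nor variation among mice enters any interval. Nearest-TSS assignment does not show which gene a region acts on, and expression of these genes was not analyzed here.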
